A study of Homo sapiens with 15 samples.

Results

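DNA methylation and Polycomb repressive complex 2 (PRC2) are systems that keep genes silent through cell division, and 10 of their genes were followed here while CDK2 was depleted in IMR32 cells. The genes were DNMT1, DNMT3A, DNMT3B, UHRF1, HELLS, TET1, EZH2, EZH1, SUZ12 and EED. Every probe set whose annotation names 1 of these genes and no other was taken, which gave 24 of the 54675 probe sets of the Affymetrix U133 Plus 2.0 array. Of the 24, 22 passed a filter on low signal, and each of the 10 genes kept at least 1. The probe set with the highest mean signal stands for its gene below, and the others are given beside it.

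IMR32 is an established human neuroblastoma line with amplified MYCN. The cells were the clone IMR32-pcDNA6-CDK2sh, in which a tetracycline repressor made from a constitutive CMV promoter holds back a pTER construct expressing a short hairpin RNA (shRNA) directed at bases 546 to 566 of the CDK2 mRNA. CDK2 is the kinase that drives cells through S phase with cyclins E and A. Doxycycline at 100 ng/ml releases the hairpin, and total RNA was profiled at 0, 8, 24, 48 and 72 h, with 3 arrays at each time and 15 in all. No unit stands beside the times in the labels, and they are read as hours from knowledge of the study. All groups share the clone, the repressor and 10% fetal calf serum, and the groups differ only in time since induction. Since every later array had doxycycline and this hairpin, the loss of CDK2, the drug itself and longer culture cannot be told apart. The labels do not say whether the 3 arrays of each time are 3 separate cultures, and p-values therefore measure only the spread between these samples, which may be technical. In bulk RNA, fewer cells of a kind and less RNA per cell cannot be told apart.

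During replication the new DNA strand is unmethylated. UHRF1 recognises the hemimethylated site and brings in the maintenance methyltransferase DNMT1, while the remodeller HELLS opens chromatin for it. DNMT3A and DNMT3B set methylation on new sites, and TET1 starts its removal by oxidising 5-methylcytosine. PRC2 places methyl groups on lysine 27 of histone H3 (H3K27), with EZH2 or EZH1 as the catalytic subunit and SUZ12 and EED as core partners. EZH2 is the form typical of dividing cells, and EZH1 that of resting and differentiated cells. Both systems have been studied in neuroblastoma, where EZH2 is known for silencing neuronal genes.

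Many S phase genes carry binding sites for the E2F transcription factors near their start, so the promoters of the 10 genes are shown first. RefSeq windows (GRCh38.p14) run from 250 bases before to 50 bases after each start, 300 bases in all, and 20 such windows belong to these genes. The forms of the E2F site looked for on both strands were the word TTCCCGC, the word TTCGCGC, the word TTGCCGC and the word TTGGCGC. These words were found in 7 of the 20 windows, against 12.97% of all 35116 windows. The 7 windows belong to 6 genes, DNMT1, EZH1, EZH2, HELLS, SUZ12 and UHRF1. The word CCAAT, read on both strands, was in 9 of the 20 windows, against 34.61% of all. The word TTTGAA and the word TTCGAA, forms of the CHR element of late cell cycle genes, were in 2 of the 20, against 16.35% of all. ATTGG, the reverse complement of CCAAT, can overlap TTGGCGC. The stretches before the start of UHRF1, the gene that fell most, and of EZH1, the gene that rose most, are printed on the strand of the gene with these words in capitals.
UHRF1 (chr19:4909351-4909500, plus strand): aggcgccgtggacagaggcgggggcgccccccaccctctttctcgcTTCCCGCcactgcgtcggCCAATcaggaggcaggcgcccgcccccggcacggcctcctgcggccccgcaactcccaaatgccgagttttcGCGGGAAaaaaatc
EZH1 (chr17:42745041-42745190, minus strand): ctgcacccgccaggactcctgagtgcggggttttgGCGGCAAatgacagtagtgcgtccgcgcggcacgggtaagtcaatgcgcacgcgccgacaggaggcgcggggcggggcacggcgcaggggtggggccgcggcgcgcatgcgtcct

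The UHRF1 stretch holds an E2F word on each strand and a CCAAT between them, and the EZH1 stretch holds 1 E2F word. For the other 4 genes with an E2F word, 30 bases around it are given, again on the strand of the gene with the word in capitals. HELLS holds a further one upstream, and the one nearest its start is shown. UHRF1 also holds the word TTCGCGC in the window of another start (chr19:4909974-4910003), outside the stretch shown.
DNMT1 (chr19:10194937-10194966, minus strand): catcggtttccGCGCGAAaagccggggcgc
HELLS (chr10:94545770-94545799, plus strand): atgacaggattTTCCCGCgaaggagaagcg
EZH2 (chr7:148884271-148884300, minus strand): ggctgccgcgtTTGGCGCtcggtccggtcg
SUZ12 (chr17:31936808-31936837, plus strand): gacccctaattTTCCCGCgaattcagttca

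A word in these windows is a match of letters and not a measured binding site. Of all probe sets tested, 19.3% were called lower and 27.1% higher at 72 h than at 0 h. Of the 6 genes with an E2F word, 5 were lower at 72 h than at 0 h and EZH1 was higher. Of the 4 without one, EED and TET1 were lower, DNMT3A was higher and DNMT3B did not pass the test. The TET1 call was lost without 72 h replicate 3 (-0.33, limma adjusted p = 0.0722). The part of these words in the changes was not tested.

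The arrays had been scaled by the submitters to a common trimmed mean, their median signals ran between 15.1 and 20.5, and GAPDH probe sets near the 3′ and the 5′ end differed by a ratio of 0.974 to 1.07 and those of ACTB by 1.10 to 1.35. Arrays of the same time correlated at 0.977 to 0.991 over the probe sets tested, and arrays of different times at 0.921 to 0.989. Arrays 8 h replicate 3 and 72 h replicate 3 had the lowest limma array weights of the 15, 0.352 and 0.394, and the highest ACTB ratios, 1.30 and 1.35. Calls of the 10 genes that change without either array are given with the genes, and the part of RNA quality in them was not tested. Of the 7 noradrenergic neuroblastoma markers on the array, 6 passed the filter (PHOX2A, HAND2, GATA3, ISL1, DBH and MYCN) and TH did not. The summed signal of all 7, TH included, was 11152 to 12108 at 72 h, against 9184 to 9694 at 0 h. Of the 6 tested, 5 were called higher at 72 h and 1 was not called, against 27.1% of all probe sets called higher. Of the 7 mesenchymal markers 2 passed the filter, of 3 endothelial markers 1, of 4 epithelial markers 1, and of 3 blood cell markers 0. The mesenchymal markers summed to 513 to 652 at 72 h, against 353 to 589 at 0 h. Of the 2 that passed the filter, FN1 was higher by 0.82 ± 0.15 on the log2 scale and the other was not called (median of both 0.43). The blood markers summed to at most 31.4 at 72 h, against at most 35.7 at 0 h. The part of these markers in the changes below was not tested. CDK2, the target of the hairpin, was lower from 8 h on, when none of the 10 genes was called. Its probe set 204252_at averaged 94.5 ± 5.56 at 8 h and 30.1 ± 9.90 at 72 h, against 232 ± 16.3 at 0 h (MAS5 signal, SD, n = 3 each), and its 8 h level was 1.16 ± 0.14 lower on the log2 scale (adjusted p = 8.19e-04). The other CDK2 probe set tested, 211804_s_at, was 1.19 ± 0.24 lower at 8 h without being called (limma adjusted p = 0.0533). It was called lower against 0 h from 24 h on.

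At 72 h, 7 of the 10 genes were lower than at 0 h, EZH1 and DNMT3A were higher, and DNMT3B did not pass the test. All changes are differences of log2(signal + 16) with their standard error, later time minus earlier time, and a gene was called at a Benjamini-Hochberg adjusted p under 0.05 in limma over all 27307 probe sets tested. The comparisons with 0 h share the 0 h arrays. At 8 h, limma called 0 of the 10 genes, against 0.242% of all probe sets, and 2 genes (DNMT3A and DNMT3B, both higher) had an unadjusted p under 0.05. At 24 h, EZH1 alone was called, as higher, against 8.68% of all probe sets called and 4.68% called higher. At 48 h, 2 genes were higher and 6 lower, against 20.8% higher and 13.8% lower of all probe sets (34.6% in all). At 72 h, 2 were higher and 7 lower, against 27.1% higher and 19.3% lower (46.4% in all). Counts of genes, here and below, take the brightest probe set of each, while the shares cover all probe sets tested, dim ones included. Of the 22 probe sets of the 10 genes, 3 were called higher and 10 lower at 48 h, and 4 higher and 11 lower at 72 h. The step from 24 h to 48 h called 7 of the 10 genes, 1 higher and 6 lower, against 7.92% higher and 6.96% lower of all probe sets (14.9% in all). The step from 48 h to 72 h called 2, both lower, against 3.74% lower and 2.40% higher of all probe sets (6.14% in all). All 10 genes passed the F test over the 4 differences from 0 h, which 46.3% of all probe sets passed.

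As a group the 10 genes had a median change of 0.09 at 8 h, against 0.02 for all 11774 genes, and of 0.01 at 24 h, against 0.05. By 48 h their median was -0.51, against 0.08 for all genes, and by 72 h it was -0.59, against 0.10. The 8 h arrays did not overlap those of 0 h for 3 of the 10 genes, against 15.2% of all probe sets. The number was 7 with the 24 h arrays (31.6% of all), 8 with those of 48 h (50.5%) and 9 with those of 72 h (55.2%). Centring each array on its median lowers all later changes a little (the 72 h median of all probe sets tested moves from 0.09 to -0.03).

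**Figure D1:**
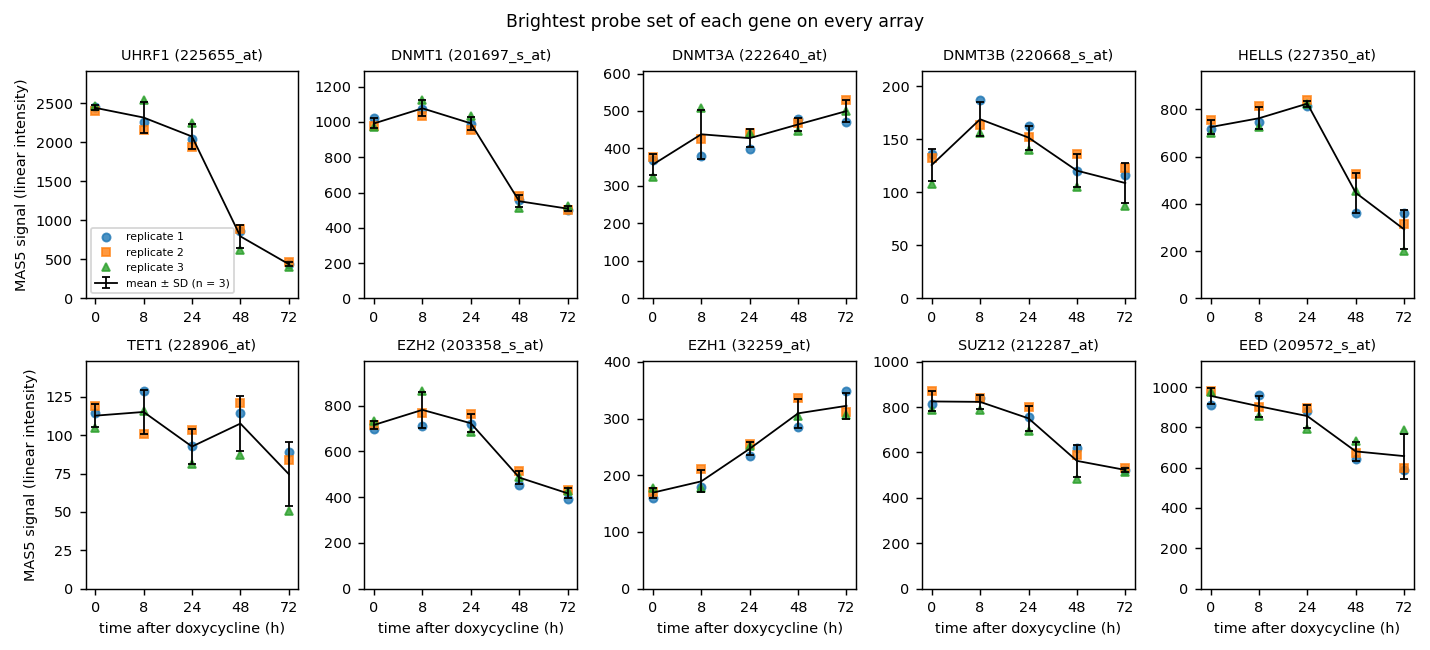
MAS5 signal (linear intensity, each panel with its own scale from 0) of the brightest probe set of each of the 10 genes against time after doxycycline (h, evenly spaced), with every array as a point and the line joining the means ± SD (n = 3 arrays per time). UHRF1, DNMT1, HELLS, EZH2, SUZ12 and EED are lower at 48 h and 72 h than at 0 h, while EZH1 climbs to between 307 and 350 at 72 h, above all 0 h arrays.

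Among the genes that copy methylation onto new DNA, UHRF1 changed most. UHRF1 (225655_at), the reader of hemimethylated DNA, had 2451, 2403 and 2462 at 0 h and 2254, 2154 and 2534 at 8 h. It had 2037, 1935 and 2243 at 24 h, 867, 891 and 622 at 48 h, and 446, 459 and 407 at 72 h. The 24 h arrays were all below the 0 h arrays, but the difference of -0.24 ± 0.11 was not past the threshold (adjusted p = 0.20). The large drop came between 24 h and 48 h, by 1.38 ± 0.11 (adjusted p = 2.77e-07), and the signal dropped by a further 0.82 ± 0.11 between 48 h and 72 h (adjusted p = 1.56e-04). At 72 h the mean signal was 17.9% of that at 0 h, a change of -2.44 ± 0.11 (adjusted p = 1.98e-11), and 73 of the 11774 genes had a lower change.

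DNMT1 (201697_s_at), the maintenance methyltransferase, had 1024, 979 and 972 at 0 h and 1076, 1033 and 1123 at 8 h. It had 988, 957 and 1032 at 24 h, 559.6, 581 and 512 at 48 h, and 499, 500.0 and 526 at 72 h. The 8 h arrays were all above the 0 h arrays, at 0.12 ± 0.07 and not past the threshold (adjusted p = 0.62), and at 24 h the change was 0.00 (95% interval -0.15 to 0.15). It then fell in 1 step, by 0.83 ± 0.07 between 24 h and 48 h (adjusted p = 5.13e-07), and the 72 h arrays overlapped the 48 h arrays. At 72 h it stood at 51.3% of its 0 h mean, a change of -0.94 ± 0.07 (adjusted p = 7.25e-09).

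HELLS (227350_at), the remodeller of the SNF2 family that helps methylation of packed chromatin, had 717, 757 and 701 at 0 h and 748, 816 and 724 at 8 h. It had 814, 839 and 822 at 24 h, 360.2, 528 and 453 at 48 h, and 361, 316 and 199.7 at 72 h. The 24 h arrays were all above the 0 h arrays, without passing the test, and all arrays of 48 h and 72 h were below them. The changes against 0 h were -0.69 ± 0.15 at 48 h (adjusted p = 0.00206) and -1.30 ± 0.15 at 72 h (adjusted p = 2.42e-06). HELLS has 5 probe sets past the filter, and the 4 brighter ones were called lower at both times, with 72 h changes between -1.30 and -1.69. The fifth, 234040_at, was also called lower, but with 4.30, 5.60 and 6.90 at 72 h it lay below the filter there, and the size of its change follows the pseudocount (-2.54 with 1, -1.30 with 16 and -0.54 with 64). The 223556_at probe set had 149, 139 and 133 at 72 h, against 488, 516 and 460.5 at 0 h. The further drop of 227350_at between 48 h and 72 h, -0.61 ± 0.15 (adjusted p = 0.0258), came with overlapping arrays and was not called without 72 h replicate 3 (-0.37, adjusted p = 0.10), 48 h replicate 2 (-0.49, adjusted p = 0.14) or 48 h replicate 3 (-0.59, adjusted p = 0.0692). In 223556_at the same step was -0.60 ± 0.08 (adjusted p = 2.31e-04), with no overlap. In 220085_at it was -0.71 ± 0.18 (adjusted p = 0.0254) and was not called without 72 h replicate 3 (-0.46, adjusted p = 0.11).

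Of the methyltransferases that act on new sites, neither was called lower at 72 h, unlike DNMT1. DNMT3A (222640_at) had 368, 378 and 325 at 0 h and 379, 425 and 509 at 8 h. It had 399.8, 440.2 and 442 at 24 h, 479, 467 and 446 at 48 h, and 469.7, 528 and 501 at 72 h. From 8 h on, every array was above the highest 0 h array. The 8 h change of 0.28 was not called (adjusted p = 0.36), and without 8 h replicate 3 it was 0.17. The rise was past the threshold at 48 h (0.37 ± 0.10, adjusted p = 0.00741) and at 72 h (0.47 ± 0.10, adjusted p = 7.68e-04). The 48 h call was lost when each array was centred on its median (0.27, adjusted p = 0.087), and the 72 h call was kept. The F test of DNMT3A (adjusted p = 0.00783) was also lost under that setting (0.13). The second DNMT3A probe set, 218457_s_at, was 0.47 ± 0.13 higher at 72 h (adjusted p = 0.00665), a call that was lost without 0 h replicate 1 (0.34, adjusted p = 0.0505). The third, 244428_at, lay below the filter with signals of 4.60 to 21.0.

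DNMT3B (220668_s_at), the related enzyme, had 136, 133 and 108 at 0 h and 187, 164 and 156 at 8 h. It had 163, 152 and 140.1 at 24 h, 120.5, 136 and 105 at 48 h, and 116, 123 and 87.3 at 72 h. Its arrays at 8 h and 24 h were all above those of 0 h, and those of 48 h and 72 h overlapped them. DNMT3B passed the F test, also under every alternative run (adjusted p = 0.00719), and none of the comparisons with 0 h. The 8 h change was 0.39 ± 0.13 (adjusted p = 0.34) and the 72 h change -0.19 ± 0.13 (95% interval -0.46 to 0.08, adjusted p = 0.25). Between 24 h and 48 h, the step in which DNMT1 fell, DNMT3B changed by -0.30 ± 0.13 with no overlap. That step was not called in limma (adjusted p = 0.13), but it was called with the replicate block.

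TET1 (228906_at), the oxidase of methylated cytosine, was dim, with 114, 119 and 105 at 0 h and 129, 101 and 116 at 8 h. It had 93.2, 103 and 81.1 at 24 h, 115, 121 and 87.1 at 48 h, and 89.3, 84.0 and 50.5 at 72 h. Only the 72 h arrays were called, at -0.53 ± 0.16 (adjusted p = 0.0116). That call rested on 72 h replicate 3, the lowest array, and without it the change was -0.33 (adjusted p = 0.0722). TET1 also failed the F test without that array (adjusted p = 0.14, against 0.0367 with it) and under 9 further alternatives. The other TET1 probe set, 214862_x_at, differed by 0.08 ± 0.19 at 72 h (adjusted p = 0.74), with 123, 68.8 and 117 at 72 h, against 92.4, 71.5 and 123 at 0 h.

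**Figure D2:**
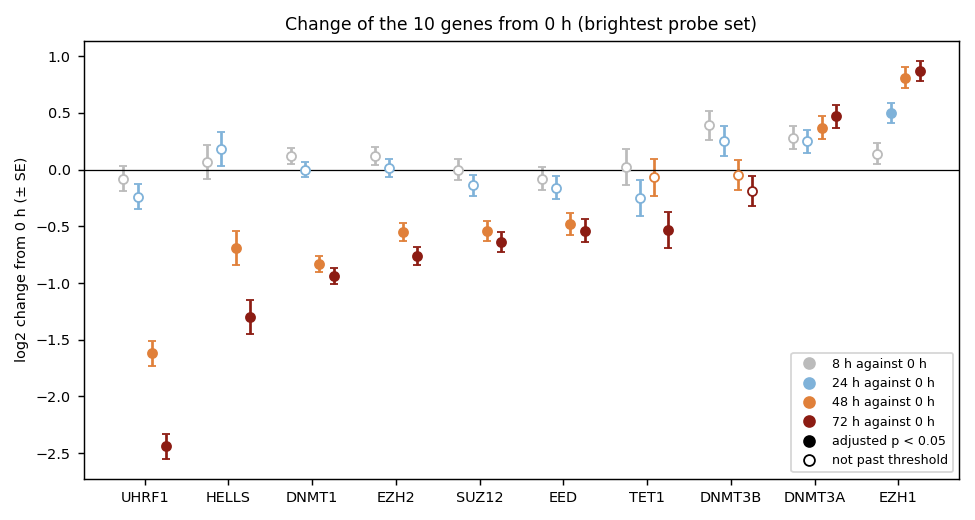
Change of each gene from 0 h (log2 of signal + 16, brightest probe set, ± SE of the limma fit), with 4 points per gene for 8, 24, 48 and 72 h, filled where the adjusted p is under 0.05. At 8 h no point is filled and at 24 h that of EZH1 is, and at 72 h the changes run from -2.44 for UHRF1 to 0.87 for EZH1.

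The catalytic subunits of PRC2 moved in opposite directions. EZH2 (203358_s_at) had 698, 716 and 734 at 0 h and 709, 770.1 and 867 at 8 h. It had 718, 765 and 687 at 24 h, 455, 514 and 489 at 48 h, and 393, 432 and 426 at 72 h. The arrays of the first 3 times overlapped, and those of 48 h and 72 h were all below them. EZH2 fell by 0.56 ± 0.08 between 24 h and 48 h (adjusted p = 1.44e-04), and its 72 h change was -0.76 ± 0.08 (adjusted p = 8.45e-07), to 58.2% of the 0 h mean.

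EZH1 (32259_at), the alternative catalytic subunit, had 159.9, 169.9 and 178 at 0 h and 179, 211 and 177 at 8 h. It had 234, 255 and 252 at 24 h, 286, 337 and 305 at 48 h, and 349.6, 311 and 307 at 72 h. All arrays from 24 h on were above all of 0 h. It was the 1 gene of the 10 called at 24 h, at 0.50 ± 0.09 (adjusted p = 0.00247), when EZH2 differed by 0.01 ± 0.08, and its change reached 0.81 ± 0.09 by 48 h and 0.87 ± 0.09 by 72 h (adjusted p = 8.26e-07). The steps from 8 h to 24 h (0.36 ± 0.09, adjusted p = 0.0433, against 3.62% of all probe sets called and 1.59% called higher) and from 24 h to 48 h (0.31 ± 0.09, adjusted p = 0.0359) were called narrowly, the first losing its call under 19 of 28 alternatives and the second under 10. Centring on array medians was among them for both (0.32 and 0.27). The first was also lost without 8 h replicate 3 (0.32, adjusted p = 0.14).

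The EZH1 probe sets did not all move together. The second brightest, 203249_at, which the annotation ties to the same transcript as 32259_at, was higher by 0.45 ± 0.12 at 24 h (adjusted p = 0.0331) and by 0.74 ± 0.12 at 72 h (adjusted p = 1.04e-04). Its 24 h call was lost under 10 alternatives, among them centring on array medians (0.39) and leaving out any 1 of the 0 h or 24 h arrays (0.39 to 0.49). The 3 dim EZH1 probe sets were not called at 72 h. The set 239197_s_at differed by -0.15 ± 0.16, 239198_at by -0.18 ± 0.15 and 211310_at by 0.46 ± 0.22, which was called without 72 h replicate 3 (0.63, adjusted p = 0.0427). With the mean of all 5 probe sets in place of the brightest, the 24 h change was 0.24 and not called (adjusted p = 0.11).

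The core partners fell with EZH2. SUZ12 (212287_at), which holds the complex together, had 814, 873 and 787 at 0 h and 842, 839.7 and 788 at 8 h. It had 756, 802 and 692 at 24 h, 618, 587 and 483 at 48 h, and 525, 529.8 and 514 at 72 h. The 48 h and 72 h arrays were all below the earlier ones, and the 72 h change was -0.64 ± 0.09 (adjusted p = 1.19e-05). The dim probe set 1566191_at (16.5 to 53.4) differed by 0.04 ± 0.22 at 72 h, and 1566190_at lay below the filter (3.60 to 15.7). A further probe set, 213971_s_at, names both SUZ12 and its partial copy SUZ12P1 and so is not counted among the 24, and it was lower at 72 h by 0.53 ± 0.13 (adjusted p = 0.00299).

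EED (209572_s_at), which binds trimethylated H3K27 and switches on the catalytic subunit, had 911, 983 and 976 at 0 h and 959, 899.8 and 857 at 8 h. It had 883, 894 and 791 at 24 h, 641, 671 and 731 at 48 h, and 590.0, 596 and 786 at 72 h. All arrays of 48 h and 72 h were below those of 0 h, with 72 h replicate 3 well above the other two. The changes were -0.48 ± 0.10 at 48 h (adjusted p = 0.00102) and -0.54 ± 0.10 at 72 h (adjusted p = 2.23e-04). The step from 24 h to 48 h (-0.32 ± 0.10, adjusted p = 0.0341) was not called without 24 h replicate 1 or 2 or 48 h replicate 1 or 2 (-0.28 to -0.31). The other EED probe set, 210656_at (46.1 to 89.7), was not called, at -0.20 ± 0.16 at 72 h.

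**Figure D3:**
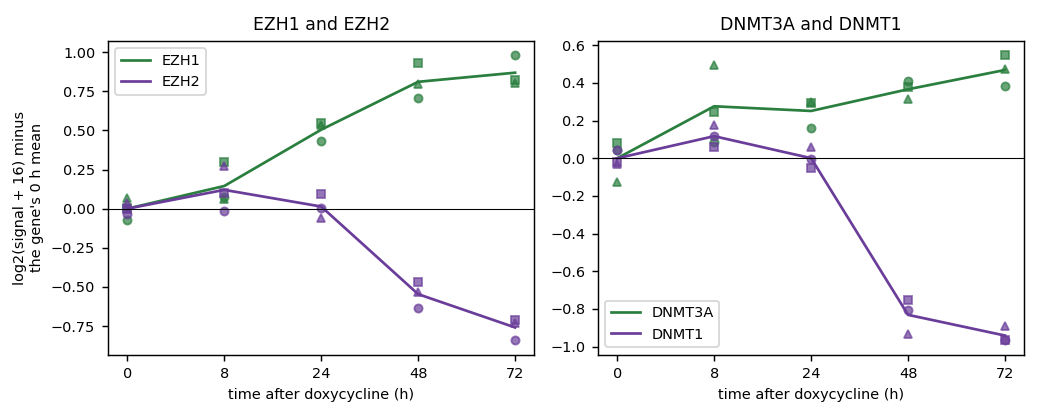
Level of EZH1 with EZH2 (left) and of DNMT3A with DNMT1 (right), as log2(signal + 16) minus the mean of the same gene at 0 h, against time after doxycycline (h, evenly spaced), with 3 arrays per time as points (circle, square and triangle for replicates 1, 2 and 3) and lines through the means. The genes of each pair lie apart at 24 h (mean difference 0.49 for EZH1 minus EZH2 and 0.25 for DNMT3A minus DNMT1) and farther apart at 48 h and 72 h, with mean changes of 0.87 and -0.76 (EZH1 and EZH2) and 0.47 and -0.94 (DNMT3A and DNMT1) at 72 h.

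Differences between genes were set side by side as changes from the own 0 h mean of each gene, taken within each array, for 5 pairs. The change of EZH1 minus that of EZH2 was 1.53 to 1.82 in the 72 h arrays (mean 1.63 ± 0.17), against -0.04 to 0.03 in the 0 h arrays (SD, n = 3 each). DNMT3A minus DNMT1 was 1.35 to 1.51 at 72 h, against -0.10 to 0.10 at 0 h. UHRF1 minus DNMT1 was -1.64 to -1.40 at 72 h, against -0.04 to 0.04 at 0 h. The 72 h and 0 h arrays of these 3 pairs were far apart, and the exact two-sided permutation test gave p = 0.1 for each, the smallest that 3 against 3 arrays allow (0.125 after adjustment over the 5 pairs). SUZ12 minus EZH2 was 0.06 to 0.20 at 72 h, against -0.10 to 0.08 at 0 h (exact p = 0.2, adjusted p = 0.2), so that SUZ12 and EZH2 differed in their change by 0.12 ± 0.08 on average. EED minus EZH2 was 0.04 to 0.45 at 72 h, against -0.03 to 0.04 at 0 h (exact p = 0.1, adjusted p = 0.125). The 0.45 came from 72 h replicate 3, an array of low weight (0.394), where EED had 786 against 590.0 and 596 in replicates 1 and 2.

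**Figure D4:**
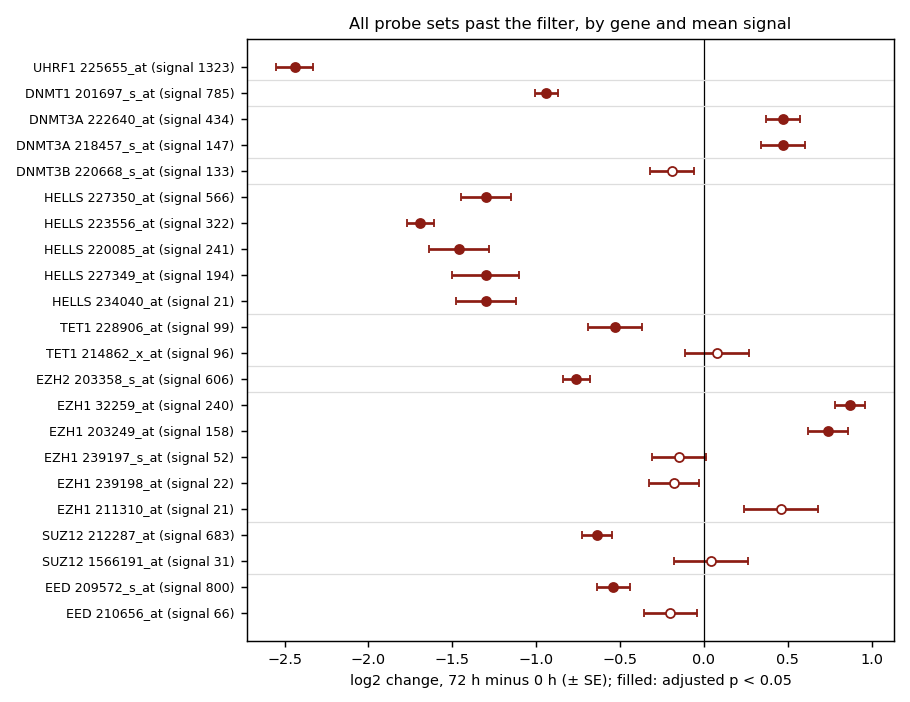
Change from 0 h to 72 h (log2 of signal + 16, 72 h minus 0 h, ± SE in limma) of the 22 filtered probe sets, grouped by gene with the brightest of each gene on top and the mean signal in brackets, filled where the adjusted p is under 0.05. The 4 brighter HELLS sets lie between -1.30 and -1.69, while the dim sets of EZH1, SUZ12 and EED and the second TET1 set are not past the threshold.

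The partners of these proteins were described from lists of other genes, each by its brightest probe set. A list of further PRC2 subunits held 9 measured genes, the histone chaperones RBBP4 and RBBP7 among them. Of the 9, 1 was higher and 3 were lower at 72 h, against 27.1% higher and 19.3% lower of all probe sets. Their median change was -0.07, against 0.10 for all genes. PHF19, a subunit that guides PRC2 to chromatin, was lower by 2.08 ± 0.08 on the log2 scale (adjusted p = 6.20e-12). JARID2, a subunit that recruits and tunes the enzyme, was higher by 1.0 ± 0.08 at 72 h (adjusted p = 9.03e-09) and already by 0.61 ± 0.08 at 24 h. The histone chaperone RBBP7 was lower by 0.86 ± 0.09. Its relative RBBP4 was lower by 0.21 ± 0.07 and was not called after quantile normalisation (-0.03) or without 0 h replicate 1 (-0.20). Beside these, MTF2 and PHF1, relatives of PHF19, differed by 0.05 ± 0.08 and 0.04 ± 0.10 and were not called. This list held a rise and a fall that were both larger than the changes of EZH2, EZH1, SUZ12 and EED.

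Of 16 other readers, erasers and regulators of DNA methylation, 5 were higher and 5 lower at 72 h (median 0.08), against 27.1% higher and 19.3% lower of all probe sets. CDCA7, the partner that brings HELLS to chromatin, was lower by 1.34 ± 0.10 (adjusted p = 9.44e-09), close to the -1.30 of HELLS itself. ZBTB4, a reader of methylated DNA, was higher by 1.07 ± 0.12. IDH2, a source of the oxoglutarate that TET enzymes use, was lower by 0.96 ± 0.11. The brightest probe set of MBD2, another reader, was lower by 0.89 ± 0.09, but the mean of its probe sets was higher (0.52, adjusted p = 2.57e-04), so its direction depends on the probe set. TET2 and TET3, the relatives of TET1, were higher by 0.53 ± 0.10 and 0.70 ± 0.11, though TET2 was not called with the mean of its probe sets (0.32). UHRF2, the relative of UHRF1, differed by 0.12 ± 0.11 and was not called. TET2, TET3, UHRF2, MTF2 and PHF1 were picked after their values were seen.

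Polycomb repressive complex 1 binds the PRC2 mark and ubiquitinates histone H2A. Of 16 measured genes of this complex, 3 were higher and 3 lower at 72 h (median -0.14), against 27.1% and 19.3% of all probe sets. The share called at 72 h was thus no greater than over the whole array. At 48 h, 1 was higher and 6 were lower (median -0.08), against 20.8% and 13.8% of all probe sets. PCGF6 was lower by 0.93 ± 0.08 and RYBP by 0.85 ± 0.08. RYBP, which joins the variant forms of the complex, was already lower at 8 h, by 0.45 ± 0.08 (adjusted p = 0.0181), when none of the 10 genes was called. That 8 h call was lost without 8 h replicate 1 or 2 or any 1 of the 0 h arrays (-0.43 to -0.47). RING1 (0.35 ± 0.09) and CBX6 (0.27 ± 0.09) were higher, and neither was called when each array was centred on its median (0.23 and 0.15). CBX6 was also lost without 0 h replicate 1 or 3 or 72 h replicate 1 or 2 (0.21 to 0.26).

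All 4 measured genes that act against Polycomb marks were higher at 72 h, with a median change of 0.39 and 0 lower (0 at an unadjusted p under 0.05 in limma), against 27.1% of all probe sets called higher and 19.3% lower. KDM6B, an H3K27 demethylase, was higher by 1.22 ± 0.10 (adjusted p = 2.01e-08). KDM6A, the related demethylase, was higher by 0.44 ± 0.13, and ASXL1 and ASXL2, cofactors of an H2A deubiquitinase, by 0.35 ± 0.10 and 0.30 ± 0.10. After centring by array medians, KDM6B alone kept its call. ASXL1 was also lost without 72 h replicate 1 (0.29), and ASXL2 without 72 h replicate 3 or 0 h replicate 1 or 2 (0.24 to 0.29). Of 9 enzymes of the methyl donor supply, 1 was higher and 4 lower (median -0.20, against 27.1% and 19.3% of all probe sets), among them MTHFD1, which makes folate one-carbon units (-1.19 ± 0.11), MTHFD2 (-0.56 ± 0.09) and methionine synthase MTR (-0.49 ± 0.11). AHCY, which clears the inhibitory product of methylation, was higher by 0.72 ± 0.06.

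For scale, 22 genes of origin licensing and the replication fork were all lower at 48 h (median -1.24) and at 72 h (median -2.05), with 0 higher, also at an unadjusted p under 0.05 in limma, against 13.8% and 19.3% of all probe sets called lower. Their 72 h changes included -2.94 ± 0.09 for CDC6, which loads the MCM helicase, -2.83 ± 0.15 for CDC45, a helicase cofactor, -2.78 ± 0.12 for GINS3 and -2.46 ± 0.10 for MCM6. UHRF1, at -2.44, was below the median of this list, while HELLS, DNMT1 and the PRC2 core genes were above it. GINS3 was lower by 1.31 ± 0.12 at 24 h, when none of the 10 genes was called lower. Of the 22, 5 were called lower at 24 h, against 4% of all probe sets.

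**Figure D5:**
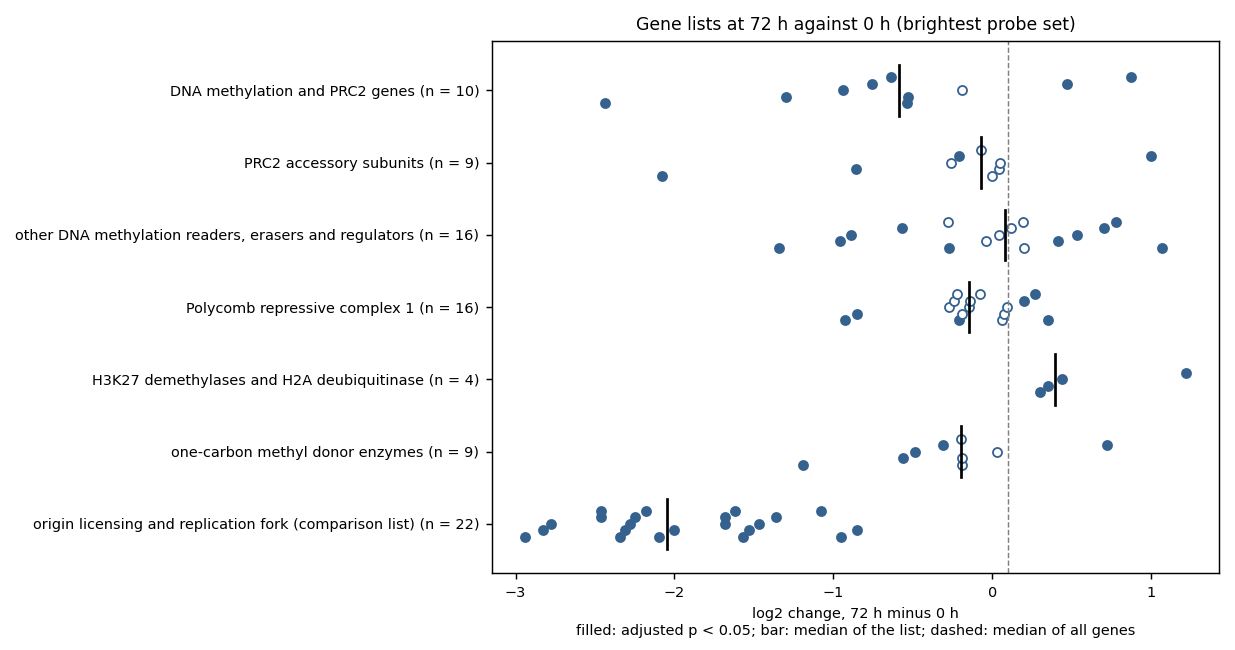
Change from 0 h to 72 h (log2 of signal + 16, 72 h minus 0 h) of each gene of 7 lists, 1 point per gene by its brightest probe set, filled where the adjusted p is under 0.05, with a bar at the median of each list and a dashed line at the median of all 11774 genes (0.10). The 10 genes have a median of -0.59, between the enzymes of the methyl donor supply (-0.20) and the replication list (-2.05). The further PRC2 subunits (labelled accessory, with RBBP4 and RBBP7 among them) have a median of -0.07.

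The genes whose log2 values ran most like each of the 10 over the 15 arrays were taken by Pearson r, as a description of arrays that share their time. UHRF1 ran most like DTL (r = 0.997) and MCM5 (r = 0.996), whose 72 h changes of -2.45 and -2.34 were also close to its own. DNMT1 ran most like PSMC3IP and NUP62 (0.990 each), HELLS most like SYTL4 (0.981) and CENPK (0.974), and EZH2 most like ELP6 (0.984) and MCM4 (0.983). MCM4 changed by -2.0 at 72 h against -0.76 for EZH2, so a like course over time did not mean a like size. SUZ12 ran most like ENDOG (0.981) and FKBP5 (0.979), EED most like NPTX1 (0.961) and CACYBP (0.957), and TET1 most like QPCTL (0.943) and RBM3 (0.922). Of the genes that rose, EZH1 ran most like GLRB (0.978), a glycine receptor subunit, and IGDCC4 (0.973), and DNMT3A most like FJX1 (0.933) and MIER2 (0.915). DNMT3B, with its early high values, ran most like CPXM1 (0.957) and DDX11 (0.925).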

How the data were processed

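Total RNA of 15 samples of IMR32-pcDNA6-CDK2sh cells was measured on 1-colour Affymetrix arrays, from 4 µg of RNA per the labels' protocols. The deposited values are linear signal intensities from MAS5 and GCOS per the submitters' processing notes, whose versions are not given in the sources used here. Their trimmed mean (2% at each end) was 100.01 on all arrays, and they were used as deposited. Gene names came from the platform annotation. Of 54613 probe sets that are not controls, 27307 with a mean log2(signal + 16) at or above the median (a signal of 16.6) were tested with limma 3.58.1 (lmFit, eBayes with trend) in R 4.3.3, the 5 times fitted together, with Benjamini-Hochberg adjustment over all of them and a threshold of 0.05. The fit was tested on simulated data. Figures and promoter searches used Python 3.11.15, pandas 2.3.3, numpy 2.4.6, scipy 1.17.1 and matplotlib 3.10.9.

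The 10 genes, the lists and the tests were chosen with earlier results of these data known. Named are all probe sets of the 10 genes, CDK2, up to 4 called genes of each list with the greatest 72 h change, and the 2 genes most like each of the 10. Some listed genes and markers are not reported here. Alternatives changed the pseudocount, scaling, filter, probe sets per gene, variance prior, array weights, arrays in the fit and replicate block, and each array was left out in turn. The number of arrays limits the precision.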

Additional observations from a re-analysis of the deposited data

How the results depend on the processing

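Of 45 changes of member probe sets past the threshold, 35 kept their call under every alternative run and 10 lost it under at least 1; none reversed. Of 109 others, 10 passed the threshold under at least 1 alternative. The 7 lower and 2 higher genes at 72 h were 8 or 9 in all under every alternative. At 24 h against 0 h the count of called genes, 1, became 0 with the mean of the probe sets of a gene and 2 without any replicate 3 array, which added UHRF1 as lower. For 24 h against 8 h it became 0 with quantile normalisation, median centring, no filter, the mean of the probe sets, a variance prior without trend, array weights, no replicate 3 array, or only the arrays of the compared times. For 72 h against 48 h the count of 2 became 1 with no filter, the prior without trend, no replicate 3 array, or only the arrays of the compared times. Leaving out 1 array at a time gave 0 for 8 h, 1 for 24 h, 8 for 48 h and 8 to 9 for 72 h against 0 h, 0 to 1 for 24 h against 8 h, 5 to 7 for 48 h against 24 h, 1 to 2 for 72 h against 48 h, and 9 to 10 for the F test.

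The labels do not say that a replicate number marks shared cultures, and not every same-numbered pair correlated above 0.1, so the numbers were not taken as pairs. Residuals of same-numbered arrays correlated at -0.11 to 0.30 (median 0.08), those of others at -0.26 to 0.25 (median -0.05), and 11 of 15 arrays correlated best with their own number, a hint from the data and not from the design. The replicate block left 9 genes called at 72 h and 8 at 48 h, and called 8 for 48 h against 24 h (7 without it), adding DNMT3B. For 72 h against 48 h it called 3 (2 without it), adding TET1.

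Over all alternatives the share of all probe sets called against 0 h ranged over 0.0806% to 0.579% at 8 h, 3.0% to 15.5% at 24 h, 15.4% to 47.0% at 48 h and 22.6% to 58.7% at 72 h. It was 1.04% to 7.45% for 24 h against 8 h, 6.03% to 25% for 48 h against 24 h and 2.26% to 11.7% for 72 h against 48 h. Median centring turned the split of all calls at 72 h to 5236 higher and 6694 lower, against 7410 and 5274, and at 48 h to 3813 and 4804, against 5689 and 3771. At 24 h it gave 682 and 1260, against 1278 and 1091. Of 191 called changes of CDK2, listed genes and the probe set that names both SUZ12 and SUZ12P1, 49 were lost under at least 1 alternative. The mean of the probe sets of MBD2 reversed its change to 0.34 at 48 h, 0.52 at 72 h and 0.14 for 48 h against 24 h; the cause was not tested. How far low signal over background limits the dim probe sets was not tested.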
